A study of Mus musculus with 4 samples.

Results

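Open chromatin of a sorted intermediate, from a conversion of fibroblasts to neural stem cells through factor-induced reprogramming, was compared with that of embryonic stem cells (ESC) in mouse, from the list of ATAC-seq peaks deposited for each. In ATAC-seq a transposase inserts adapters into accessible DNA, and a peak is a stretch where insertions pile up. Within each list, peaks on chromosomes 1 to 19 that lay at most 10 bp apart were joined into regions, and a region that shared at least 1 bp with a region of the other list was called shared. The 125858 ESC peaks gave 72269 regions and the 130631 intermediate peaks gave 69882, and both lists together merged into 103580 regions. The 4 lists of the series, which also holds fibroblasts and induced pluripotent stem cells, merged into 168460.

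The intermediate came from embryonic fibroblasts (MEF) of strain B6/129 whose labels name a Rosa26-TdTomato B6 female and a Col1a-OSKM 129 male. OSKM stands for the factors Oct4, Sox2, Klf4 and Myc, which doxycycline switches on from the Col1a locus. A Nanog-CreER reporter marks cells in which the Nanog promoter has been active in the presence of 4-hydroxytamoxifen, and both drugs were given from day 1 to day 9. A JAK1 inhibitor at 0.5 µM was also used, with 6 days recorded for it and 3 days for a second medium. The tdTomato+ cells were then sorted without feeder cells. Day 9 is the time in the sample title and the protocol, while the source field has day 6. ESC were of the line v6.5, while the MEF and iPSC libraries, set beside the comparison below, carry the strain label A12 (Mbd3 flox/-). The strain and transgene labels thus differ between intermediate and ESC, and strain, culture and cell state cannot be told apart. Each population has 1 library, so no difference was tested and no value has a replicate error.

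Naive pluripotent cells are held by a network around Oct4, Sox2 and Nanog, which acts largely through enhancers far from genes, and by LIF, which signals through JAK kinases to STAT3. During reprogramming the epithelial programme and early pluripotency genes are known to open before late genes, among them Dppa family genes and the germline genes whose CpG-rich promoters are methylated in somatic cells. Promoters rich in CpG tend to be open in most cell types, while CpG-poor promoters are often tissue-specific.

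Among the gene lists, promoters with an ESC peak lacked an intermediate peak most often at germline genes, 10 of 10. The 4 of these with the tallest ESC peaks are printed here. Each runs from 250 bp before to 50 bp after the annotated start, 5′ to 3′ on the gene's strand, as RefSeq gives it for GRCm38.p6 (mm10), with every CG in capitals. Dazl, an RNA-binding regulator of germ cells, lies at chr17:50293571-50293870 on the minus strand, Brdt, a testis bromodomain protein, at chr5:107330944-107331243 on the plus strand, Mael, a piRNA pathway factor, at chr1:166238695-166238994 on the minus strand and Stk31, a germ cell Tudor-domain kinase, at chr6:49395289-49395588 on the plus strand. They hold 28, 23, 24 and 29 CpG in that order.
Dazl promoter: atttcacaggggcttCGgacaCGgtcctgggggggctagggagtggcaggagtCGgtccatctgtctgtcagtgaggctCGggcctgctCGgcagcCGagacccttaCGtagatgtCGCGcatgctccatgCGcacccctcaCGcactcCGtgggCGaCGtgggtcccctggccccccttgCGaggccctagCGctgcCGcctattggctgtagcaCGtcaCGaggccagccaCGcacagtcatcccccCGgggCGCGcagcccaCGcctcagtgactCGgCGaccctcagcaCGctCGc
Brdt promoter: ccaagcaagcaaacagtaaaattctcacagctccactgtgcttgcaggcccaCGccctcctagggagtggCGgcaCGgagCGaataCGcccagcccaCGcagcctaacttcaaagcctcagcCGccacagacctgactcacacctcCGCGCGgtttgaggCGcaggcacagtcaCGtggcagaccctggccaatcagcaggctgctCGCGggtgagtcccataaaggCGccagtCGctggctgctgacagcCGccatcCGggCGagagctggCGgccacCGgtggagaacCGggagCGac
Mael promoter: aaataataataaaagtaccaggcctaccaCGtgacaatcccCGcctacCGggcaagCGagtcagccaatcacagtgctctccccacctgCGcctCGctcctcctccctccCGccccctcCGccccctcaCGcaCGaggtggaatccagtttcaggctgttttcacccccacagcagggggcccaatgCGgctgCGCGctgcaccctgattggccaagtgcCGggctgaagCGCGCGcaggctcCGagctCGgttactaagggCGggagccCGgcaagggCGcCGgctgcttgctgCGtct
Stk31 promoter: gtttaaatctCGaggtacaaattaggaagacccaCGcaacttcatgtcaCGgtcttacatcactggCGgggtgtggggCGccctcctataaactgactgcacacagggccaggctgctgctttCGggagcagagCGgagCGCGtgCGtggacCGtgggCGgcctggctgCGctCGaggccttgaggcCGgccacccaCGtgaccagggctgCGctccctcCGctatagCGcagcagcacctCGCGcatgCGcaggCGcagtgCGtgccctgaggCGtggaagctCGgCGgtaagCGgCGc

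In the Dazl window the peak height was 177 in MEF, 534 in iPSC and 236 in ESC, and no intermediate peak reached it. Over the Brdt window the heights were 60 in iPSC and 105 in ESC, with none in MEF or the intermediate. Mael followed the same order of presence with 114 in iPSC and 83 in ESC, and Stk31 with 60 and 62. In these windows the intermediate thus stood with MEF at 3 genes and alone at Dazl. The height is a whole number that the authors' processing gave each peak, not known to be scaled to library size, so heights of different libraries do not measure a difference in accessibility, and the depth of each library is unknown. A place without a listed peak is not shown to be inaccessible.

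The promoters that the intermediate had beyond ESC held fewer CpG than those in ESC only, with medians of 5 and 14. The germline promoters above, taken from a chosen list, lay above that median of 14. Printed in the same way are 3 with the tallest such peaks. Genes with provisional names (Gm numbers, Rik or a leading digit) were left out of this ranking. S100a3, a calcium-binding protein of the S100 family, lies at chr3:90588313-90588612 on the plus strand, Nabp2, a single-stranded DNA-binding protein, at chr10:128410502-128410801 on the minus strand and Trpm8, a cold-sensing ion channel, at chr1:88306485-88306784 on the plus strand. They hold 0, 5 and 1 CpG in that order.
S100a3 promoter: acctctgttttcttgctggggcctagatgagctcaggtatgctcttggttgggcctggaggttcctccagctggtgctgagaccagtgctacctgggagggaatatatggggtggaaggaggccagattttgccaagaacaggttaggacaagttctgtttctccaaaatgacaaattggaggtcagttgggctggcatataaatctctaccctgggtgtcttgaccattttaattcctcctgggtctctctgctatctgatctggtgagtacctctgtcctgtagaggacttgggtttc
Nabp2 promoter: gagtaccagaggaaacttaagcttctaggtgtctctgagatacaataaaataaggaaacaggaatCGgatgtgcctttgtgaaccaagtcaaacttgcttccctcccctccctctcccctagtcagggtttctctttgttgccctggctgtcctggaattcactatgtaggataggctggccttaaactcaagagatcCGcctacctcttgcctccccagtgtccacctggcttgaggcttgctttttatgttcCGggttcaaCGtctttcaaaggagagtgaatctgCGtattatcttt
Trpm8 promoter: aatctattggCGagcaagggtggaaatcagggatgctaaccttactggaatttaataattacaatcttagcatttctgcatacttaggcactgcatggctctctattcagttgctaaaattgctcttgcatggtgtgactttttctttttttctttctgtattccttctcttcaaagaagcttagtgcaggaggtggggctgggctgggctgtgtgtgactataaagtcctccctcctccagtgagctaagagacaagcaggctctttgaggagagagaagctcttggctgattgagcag

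The intermediate height was 364 over the S100a3 window, 305 over that of Nabp2 and 292 over that of Trpm8, and neither ESC nor iPSC had a peak there. MEF had none at S100a3, 201 at Nabp2 and 49 at Trpm8. Another 2 promoters are shown because they hold the 7 letters TGANTCA, the core to which AP-1 factors bind, here in capitals. The Brdt promoter above, with a peak in ESC and none in the intermediate, holds these letters too, in small type. Mndal, an interferon-inducible gene, lies at chr1:173879909-173880208 on the minus strand, where only the intermediate had a peak, of height 283. Krtdap, a gene of differentiating keratinocytes, lies at chr7:30787655-30787954 on the plus strand, again with a peak in the intermediate alone, of height 200. A match of letters is a description of the sequence and shows no binding.
Mndal promoter: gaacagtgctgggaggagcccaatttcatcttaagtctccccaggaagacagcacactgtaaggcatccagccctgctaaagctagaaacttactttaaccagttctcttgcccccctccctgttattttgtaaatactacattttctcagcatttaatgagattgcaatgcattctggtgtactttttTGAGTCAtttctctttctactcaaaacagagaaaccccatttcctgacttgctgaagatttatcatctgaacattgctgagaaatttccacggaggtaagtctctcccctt
Krtdap promoter: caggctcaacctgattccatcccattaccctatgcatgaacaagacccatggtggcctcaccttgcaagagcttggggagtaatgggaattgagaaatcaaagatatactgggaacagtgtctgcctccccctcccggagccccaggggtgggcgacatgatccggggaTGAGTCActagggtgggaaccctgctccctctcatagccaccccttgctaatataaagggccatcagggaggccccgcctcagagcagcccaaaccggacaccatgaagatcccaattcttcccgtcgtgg

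About as many regions were missing in each direction. Of the ESC regions, 36367 had no intermediate region, a share of 50.3% (Wilson 95% interval 50.0 to 50.7). Of the intermediate regions, 33823 had no ESC region, 48.4% (48.0 to 48.8). The intervals here and below cover counting error over regions only, not the difference between libraries. In bases, the lists shared 31.9 Mb, and the Jaccard index, the bases covered in both over the bases covered in either, was 0.322. Among the other lists, the intermediate reached 0.269 with iPSC and 0.216 with MEF, and ESC reached 0.469 with iPSC and 0.229 with MEF. ESC regions were missing from the iPSC list in 29.0% of cases (28.7 to 29.3) and from the MEF list in 61.8% (61.5 to 62.2), so the intermediate lay between those lists by this count.

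Shared regions matched closely in place and less closely in height. The median distance between the summits of matched regions was 55 bp, and 70.7% had summits within 100 bp. Across the 35902 shared ESC regions, the heights in both lists had a Spearman correlation of 0.477, given as a description, since sites differ in width and in openness in every cell type. When each list was cut by height into 4 equal groups, 62.5% of the 15247 shared regions in the highest ESC group were also in the highest group of the intermediate.

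Few regions lay close to the boundary between shared and not shared. Only 293 shared ESC regions overlapped by 50 bp or less, with a median height of 12, and 315 ESC-only regions came within 50 bp of an intermediate region, with a median height of 18. On the intermediate side there were 305 and 343 such regions, with median heights of 12 and 14. From an ESC-only region the nearest intermediate region was a median of 12.5 kb away, and from an intermediate-only region the nearest ESC region was 8.66 kb away. Within 500 bp of the other list lay 6.06% of ESC-only and 6.65% of intermediate-only regions.

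Low regions were missing more often than tall ones, in both directions. From the lowest to the highest of the 4 ESC height groups, the share without an intermediate region was 71.4%, 66.0%, 48.2% and 15.6%. For the intermediate the shares without an ESC region were 65.2%, 58.1%, 45.6% and 24.7%. The lowest ESC group thus lacked a match more often than the lowest intermediate group, and the highest ESC group less often. Above a height of 100 there were 2578 intermediate-only regions and 1027 ESC-only regions, on unscaled heights. Median heights were 36 for ESC-only and 62 for shared ESC regions, and 43 for intermediate-only and 63 for shared intermediate regions. Regions of 1 list were also narrower, with median widths of 710 bp (ESC-only) and 750 bp (intermediate-only) against 970 and 950 bp for the shared regions of each list.

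Regions near genes were mostly shared. Within 1 kb of either end of a protein-coding gene, 20.1% of ESC regions (19.5 to 20.7) had no intermediate region, against 58.8% (58.4 to 59.2) elsewhere. For intermediate regions the shares without an ESC region were 13.9% (13.3 to 14.4) and 57.7% (57.3 to 58.1). In the highest height group the shares were lower in both places: 3.50% of the ESC regions at gene ends lacked a match and 27.1% of the distal ones, and for the intermediate 3.45% and 37.9%. Among tall regions at gene ends the lists therefore differed little in either direction, and among tall distal regions the intermediate had the larger unmatched share. More than 100 kb from any protein-coding gene lay 19.12% of ESC-only regions and 12.2% of intermediate-only regions, against 7.14% and 7.09% of the shared ones.

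**Figure D1:**
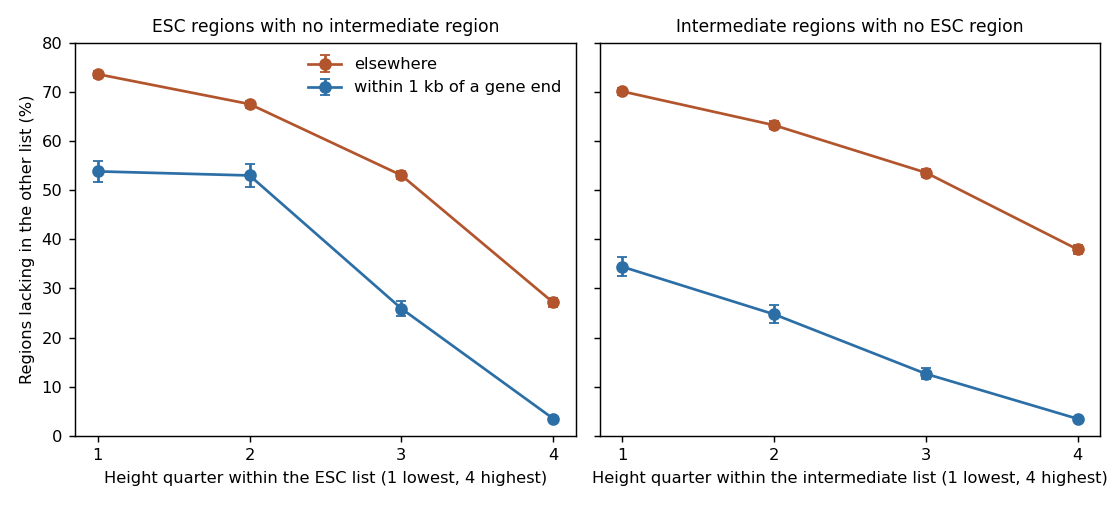
Share of ESC regions without an intermediate region (left) and of intermediate regions without an ESC region (right) by height group within the list (1 lowest, 4 highest), for regions within 1 kb of a gene end and elsewhere; bars are Wilson 95% intervals over regions. In both panels the share falls with height and is lower at gene ends, reaching 3.50% and 3.45% in the highest group there.

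ESC-only regions were in the iPSC list less often than ESC regions in general, and intermediate-only regions were mostly in no other list. Of ESC-only regions, 60.6% (60.1 to 61.1) had an iPSC region and 18.5% (18.1 to 18.9) a MEF region. For shared ESC regions the shares were 81.5% and 58.2%, and for all ESC regions 71.0% and 38.2%. Divided by pattern, 49.3% of ESC-only regions were in iPSC but not MEF, 7.16% in MEF but not iPSC, 11.3% in both and 32.2% in neither. Of intermediate-only regions, 13.2% (12.8 to 13.5) had an iPSC region and 16.9% (16.5 to 17.3) a MEF region, against 48.6% and 38.4% of all intermediate regions. Their patterns were 9.89% in iPSC but not MEF, 13.7% in MEF but not iPSC, 3.29% in both and 73.2% in neither, the last being 24749 regions, against 41.4% in neither over all intermediate regions. The 4617 regions in MEF and the intermediate but in neither ESC nor iPSC were thus a small part of what the intermediate had beyond ESC.

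**Figure D2:**
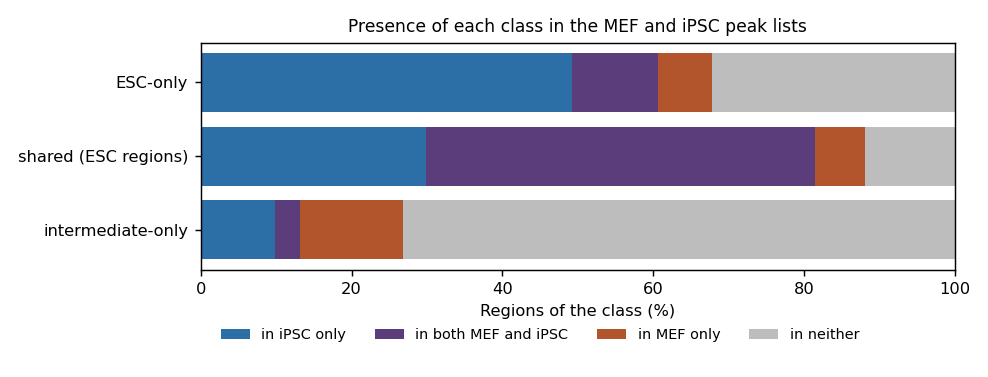
Share of regions of each class that are in the iPSC list only, in both MEF and iPSC, in MEF only or in neither. Of the ESC-only regions 49.3% are in iPSC but not MEF, and of the intermediate-only regions 73.2% are in neither list.

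Read from the other side, presence in MEF and iPSC went with presence in the intermediate. ESC regions found in both MEF and iPSC lacked an intermediate region in 18.2% of cases (17.7 to 18.7), those in iPSC only in 62.6%, those in MEF only in 52.7% and those in neither in 73.2%. Of intermediate regions found in neither MEF nor iPSC, 85.5% (85.1 to 85.9) also lacked an ESC region. Of those found in both, 5.60% did.

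Genes were next classed by a region within 1 kb of either end of the gene in each list, called an end peak here. Of 20665 protein-coding genes, 12413 had an end peak in both lists, 1667 in ESC only, 672 in the intermediate only and 5913 in neither. The background for the gene lists below is therefore 11.8% of the 14080 genes with an ESC end peak lacking it in the intermediate, and 5.14% of the 13085 genes with an intermediate end peak lacking it in ESC. The 1667 genes had a median ESC end height of 44, against 113 where both lists had a peak. Of them 70.3% had an end peak in iPSC and 54.3% in MEF. The 672 genes had a median height of 46, against 100 where both lists had a peak. Of these, 26.2% had an end peak in iPSC, 37.1% in MEF and 48.2% in neither. A peak near a gene end can belong to a neighbouring gene, and at either end it can lie away from the promoter.

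**Figure D3:**
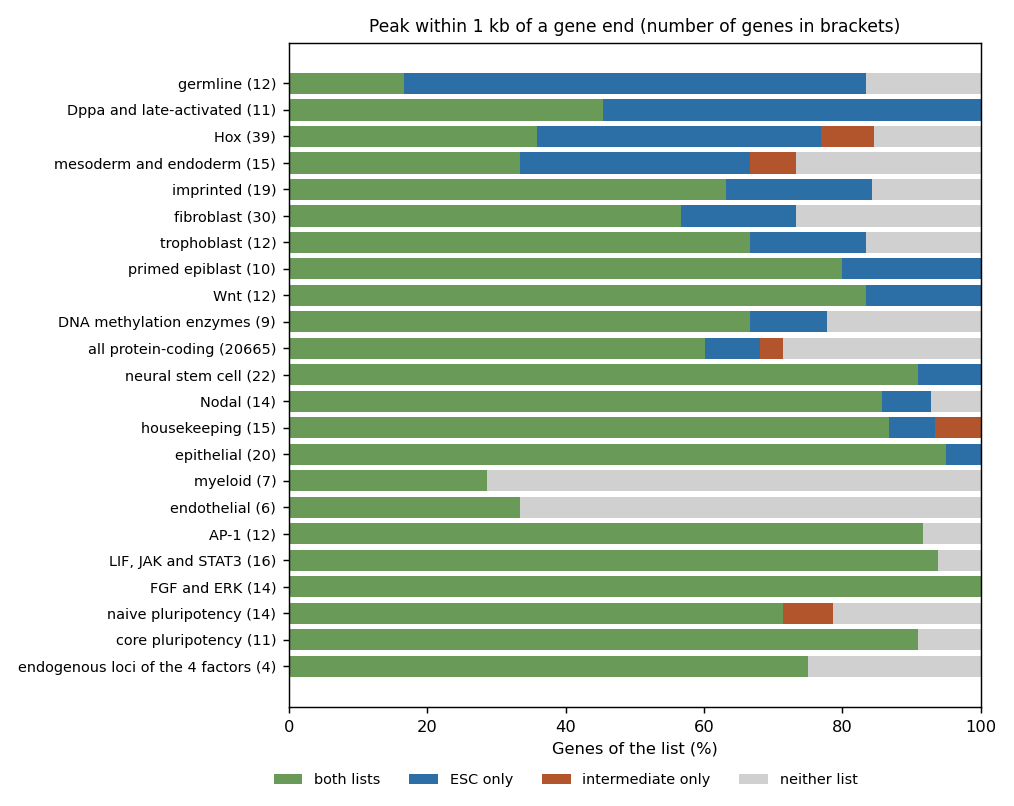
Share of the genes of each list with an end peak in both lists, in ESC only, in the intermediate only or in neither, beside all 20665 protein-coding genes; brackets give the number of genes. The germline, Dppa and late-activated, Hox and mesoderm and endoderm lists have the widest ESC-only parts, and the core pluripotency and FGF and ERK lists have none.

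Core pluripotency genes were marked in the intermediate as in ESC. Among 11 of them, 10 had it in both lists, and Pou5f1, which encodes Oct4, had it in neither. Nanog, the gene whose activity the sort selected for, had an intermediate height of 65, an iPSC height of 152 and an ESC height of 105, without a MEF peak. Sox2 reached 108 in the intermediate and 135 in ESC, beside 71 in MEF and 173 in iPSC. Lin28a, an RNA-binding protein that blocks let-7 maturation, had 36, 44 and 108 in intermediate, iPSC and ESC, and the zinc finger gene Sall4 had 112, 83 and 138. Both lacked a MEF peak. Gdf3, a TGF-beta family ligand, had 202 in the intermediate against 73 in ESC and 106 in iPSC, and Fbxo15, an F-box gene used as a reprogramming reporter, had 184 against 126 and 242. Pou5f1 had an end peak in iPSC alone, of height 1330, so ESC itself lacked a listed end peak at a gene that these cells are known to express. Away from its ends, 1 ESC region of height 45 had Pou5f1 as its nearest gene within 100 kb. This region was also in iPSC and had no intermediate region.

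Naive pluripotency genes gave a like picture at their ends. Of 14 genes, 10 had an end peak in both lists and none in ESC only. Tcl1, a co-activator of Akt, had an end peak of 48 in the intermediate and 78 in iPSC and none in ESC or MEF. Zfp42, which encodes Rex1, had 140 in the intermediate against 219 in ESC and 400 in iPSC. Esrrb, Nr5a2 and Prdm14 had no end peak in either list, and of these 3 genes iPSC had one at Esrrb (66) and Prdm14 (74). By promoter windows, which include starts inside a gene, Nr5a2 had a peak in both lists (180 in the intermediate, 125 in ESC), and Esrrb had one in ESC (30) and MEF (35) but not in the intermediate, so that 1 of 10 naive genes with an ESC promoter peak lacked it.

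Genes of the Dppa and late-activated list were divided. All 11 had an ESC end peak, and 6 of them (54.5%) lacked it in the intermediate, against the 11.8% of all genes. By promoter windows, which cover 6 genes of this list, it was 2 of 6, Dnmt3l and Mov10l1. Dppa5a, Dppa2 and Dppa4, small proteins of early embryos, had heights of 155, 54 and 51 in iPSC and of 111, 67 and 58 in ESC. Dnmt3l, the cofactor of de novo DNA methylation, had 53 in iPSC and 56 in ESC, and Mov10l1, a piRNA helicase, had 47 and 51. Dppa3, a maternal factor that protects against demethylation, had 41 in ESC and no iPSC peak. At these 6 genes neither the intermediate nor MEF had an end peak. The other 5 had one in the intermediate too, given here with the ESC height, both unscaled. They were L1td1 (200 and 206), Tdh (121 and 78), Zscan10 (216 and 95), Tex19.1 (54 and 49) and Nlrp4f (61 and 42).

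Germline genes were missing most often. Of 10 with an ESC end peak, 8 (80%) lacked it in the intermediate: Mael, Brdt, Stk31, Sycp1, Sycp3, Ddx4, Slc25a31 and Tdrd1. Sycp1 and Sycp3 build the synaptonemal complex of meiosis, Ddx4 is the germ cell RNA helicase Vasa and Tdrd1 a Tudor protein of the piRNA pathway. Their ESC heights ran from 27 at Tdrd1 to 105 at Brdt. Sycp3 and Ddx4 had 151 and 104 in iPSC against 45 and 45 in ESC. No MEF peak was listed at any of the 8, and iPSC lacked one only at Sycp1. By the narrower promoter windows printed above, 10 of 10 germline genes with an ESC peak had none in the intermediate, 8 of them had an iPSC peak and 1, Dazl, a MEF peak. Over all genes in the promoter table, 11.1% of the 10837 genes with an ESC promoter peak had none in the intermediate, and 3.16% of the 9950 with an intermediate promoter peak had none in ESC. The windows added Dazl and Hormad1, whose end peaks in the intermediate, at 62 and 233, lay outside the promoter. For Hormad1 the ESC peak in the promoter itself had a height of 30 and was in no other list.

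**Figure D4:**
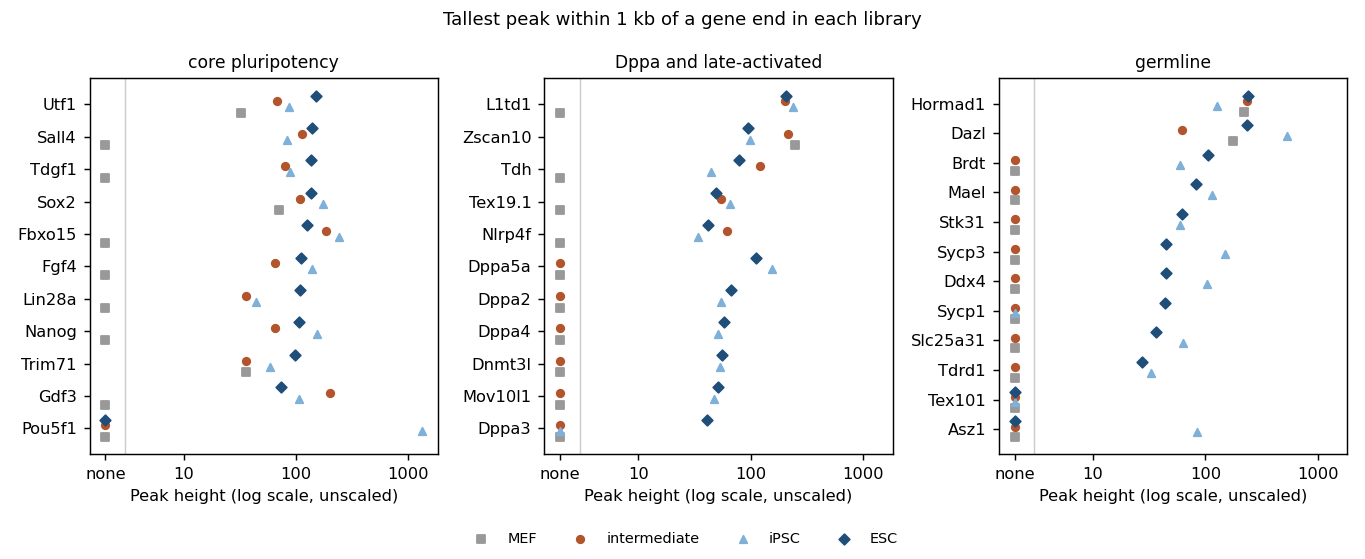
Height of the tallest peak within 1 kb of a gene end in each library (log axis, unscaled; "none" marks no listed peak) for 3 lists. Core pluripotency genes have points for the intermediate beside those for ESC, except Pou5f1, while 6 of 11 Dppa and late-activated and 8 of 10 germline genes with an ESC peak have none in the intermediate.

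Developmental genes with end peaks in ESC were also missing often. Of 30 Hox genes with an ESC end peak, 16 (53.3%) lacked it in the intermediate, 12 of them with a MEF peak and 8 with an iPSC peak. The heights were low: Hoxd10 had 69 and Hoxa3 53 in ESC, and the other 14 had between 23 and 51. Hox genes lie side by side, and Hoxa5 and Hoxa6 had the same heights in every list (57 in MEF, 54 in iPSC and 47 in ESC). End peaks in the intermediate and not in ESC were at Hoxa2 (35), Hoxb1 (48) and Hoxc5 (35). Among mesoderm and endoderm genes, 5 of 10 lacked the peak: Sox17 (89 in ESC, 380 in iPSC), Gata6 (77 and 143), Kdr (83 and 212), T (33 and 58) and Mixl1 (51, none in iPSC). MEF had a peak at Gata6 (92) and Kdr (77) and none at Sox17, T and Mixl1. By promoter windows the counts were 7 of 11 for Hox and 3 of 5 for mesoderm and endoderm genes. Sox17 and Gata6 specify endoderm, Kdr is the VEGF receptor of vascular precursors, and T and Mixl1 mark the primitive streak. Mesp1, of cardiac mesoderm, had 35 in the intermediate and 36 in iPSC and none in ESC.

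Other lists had smaller shares missing. Of 10 primed epiblast genes, 2 lacked the end peak: Otx2, a homeobox gene of the epiblast and forebrain, with 116 in ESC, 168 in iPSC and 38 in MEF, and Fgf15 with 30 in ESC and 35 in MEF. Imprinted genes lacked 4 of 16, namely Gnas (84 in ESC), Meg3 (54), Nnat (47) and Mest (27). Of trophoblast genes 2 of 10 were missing, Tfap2c (72 in ESC, no other list) and Gcm1 (36 in ESC, 57 in iPSC). The Wnt list lacked 2 of 12, T and Cdx1 (51 in ESC, 193 in iPSC), the neural stem cell list 2 of 22, among them Fabp7 (36), and the Nodal list 1 of 13, Lefty2 (24). Of 14 housekeeping genes 1 was missing, Gusb (36 in ESC), while Ywhaz (36) had a peak in the intermediate alone, and with lists this short single genes set the share. Neural stem cell genes, the later aim of the conversion, thus had end peaks in the intermediate at 20 of 22 genes, against 22 in ESC, 22 in iPSC and 17 in MEF.

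Epithelial genes were nearly all marked in the intermediate. Of 20, 19 had an end peak there, against 20 in ESC, 18 in iPSC and 9 in MEF, and the missing gene was Krt18 (36 in ESC). Cdh1, the E-cadherin gene, had 224 in the intermediate against 157 in ESC and 90 in iPSC, with none in MEF. Epcam, an adhesion gene, had 156 against 138 in ESC, 99 in iPSC and 36 in MEF. Of 30 fibroblast genes, the intermediate had end peaks at 17, iPSC at 17, ESC at 22 and MEF at 28. The 5 that ESC had and the intermediate lacked were Acta2, Tagln, Pdgfra, Pdgfrb and Twist2, the first 2 being contractile genes, the next 2 receptors for platelet-derived growth factor and the last a mesenchymal regulator. Their ESC heights were 30 to 41 and MEF had a peak at each, up to 159 at Tagln. The fibroblast list thus gave no gene with an end peak in the intermediate and none in ESC. Of markers of other cells, 2 of 6 endothelial and 2 of 7 myeloid genes had an end peak in the intermediate, and the same numbers held for ESC. Pecam1 and Ptprc, their defining genes, had none within 1 kb in either list. With a window of 2.5 kb, Pecam1, Tie1, Csf1r and Lyz2 had an end peak in the intermediate and none in ESC. No endothelial or myeloid gene of these lists had the opposite. More than 1 kb from gene ends the endothelial list had regions of the intermediate in no other list at Tek (103), Cdh5 (99) and Tie1 (83). The part of other cells in these results was not tested.

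The signalling lists touched by the culture differed little at gene ends. All 14 FGF and ERK genes and 15 of 16 LIF, JAK and STAT3 genes had end peaks in both lists. The exception was Lifr, the LIF receptor gene, with none at either outer end of the gene. A Lifr promoter inside those ends, at chr15:7129322-7129621, had a peak in both lists, of 54 in the intermediate and 120 in ESC. By promoter windows, 1 of 13 genes of this list with an ESC peak lacked it in the intermediate, Bcl3 (30 in ESC). AP-1 genes had them in both lists at 11 of 12, Batf having none in either.

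Regions were also assigned to the nearest gene within 100 kb of its body, those at gene ends included. At core pluripotency genes 32 of 65 ESC regions (49.2%, 37.5 to 61.1) had no intermediate region, close to the 50.3% of all ESC regions, and 12 of 48 intermediate regions (25.0%, 14.9 to 38.8) had no ESC region, against 48.4% of all. At Dppa and late-activated genes the numbers were 35 of 58 and 4 of 24. At naive genes they were 69 of 146 and 41 of 120. In all 3 lists the share beyond ESC was below that of all intermediate regions, while the share of ESC regions missing lay on either side of that of all ESC regions. Germline genes lacked 19 of 24 ESC regions (79.2%), of which 10 lay at a gene end, and Hox genes 49 of 68 (72.1%), with 25 at a gene end, while AP-1 and housekeeping genes each lacked 12 of 49 (24.5%).

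Single pluripotency loci varied on either side of the 50.3% of all ESC regions that had no intermediate region. Sox2 had 13 ESC regions, of which 10 had no intermediate region and 9 of those an iPSC region. The tallest, at chr3:34668051-34669280, 15.6 kb from the gene, had a height of 104 in ESC and 172 in iPSC. Klf4 had 10 ESC regions and lacked 5, near the share of all. The tallest missing ones lay 62.3 kb from the gene at chr4:55463941-55464790 (145 in ESC, 110 in iPSC) and 50.9 kb from it at chr4:55475121-55476190 (109 and 98). Esrrb, an orphan nuclear receptor of the naive network, had 16 ESC regions and lacked 11, the tallest within the gene at chr12:86501121-86503280 (139 in ESC, 114 in iPSC), and Zfp42 had 13 and lacked 11. All 8 ESC regions of Dppa2 and all 4 of Dnmt3l were missing. Nanog had 5 and lacked 1, and Fgf4, an early FGF ligand, had 3 and lacked none. Lin28a lacked 1 of 2, a region within the gene at chr4:134011501-134012540 with a height of 134 in ESC and 23 in MEF. Prdm14, which had no end peak in either list, had 12 ESC regions and shared 7 of them.

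Regions that the intermediate had beyond ESC were no more common at most listed genes than overall. The lists above the 48.4% of all intermediate regions included the endothelial list with 22 of 35 (62.9%, 46.3 to 76.8), the germline list with 8 of 13 (61.5%, 35.5 to 82.3), and the list of DNA methylation enzymes with 37 of 67 (55.2%, 43.4 to 66.5), and each of these 3 intervals holds 48.4%. In the LIF, JAK and STAT3 list, below that share, single genes had several such regions. Cish, a feedback inhibitor of cytokine signalling, had 6 intermediate regions, 5 without an ESC region, the tallest at chr9:107298521-107299620 within the gene with a height of 138 and no other list. Osmr, a receptor of the IL-6 family, had 8 and 5, the tallest 25.5 kb away at chr15:6900441-6901820 with 114. At Jak1, ESC had 9 regions and the intermediate lacked 8, while 2 of the 3 intermediate regions had no ESC region. The taller of these 2, at chr4:101202281-101203360, had 105 in the intermediate, 246 in MEF and 39 in iPSC. Over the whole LIF, JAK and STAT3 list 37 of 83 ESC regions (44.6%) and 26 of 69 intermediate regions (37.7%) were unmatched, both below the share of all regions.

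The demethylase gene Tet2 had 26 intermediate regions and 18 ESC regions, of which 13 and 7 were unmatched. These counts are near and below the shares of all regions, 48.4% for the intermediate and 50.3% for ESC. Its tallest intermediate-only region, chr3:133467131-133469140 within the gene, had 180 in the intermediate and 39 in iPSC. Epithelial genes had 50 of 111 intermediate regions without an ESC region (45.05%, 36.1 to 54.3) and lacked 30 of 89 ESC regions (33.7%), both below the shares of all regions. At Grhl1, an epithelial transcription factor, 5 of 8 were unmatched, the tallest at chr12:24589961-24591160 with 175 and no other list. Ovol1, another epithelial regulator, had 159 at chr19:5552491-5554890, with 40 in MEF and 38 in iPSC.

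Other tall intermediate-only regions lay near genes of other lineages, named here by height. Over their whole lists the share of intermediate regions without an ESC region was below the 48.4% of all. It was 30.2% for neural stem cell, 35.3% for mesoderm and endoderm and 39.5% for trophoblast genes. Near Elf5, a trophoblast factor, a region at chr2:103371901-103373500 had 319 in the intermediate and 32 in iPSC, 38.6 kb from the gene. Foxa2, of endoderm, had one at chr2:148144561-148145650 with 295 and no other list, 97.6 kb away, and Pax6, of neural tissue, one at chr2:105627951-105629180 with 261, 39 in iPSC and 39.7 kb away. Hes1, a Notch target, had 27 intermediate regions, 14 of them unmatched, near the share of all. Thy1, the fibroblast surface marker, had a region of 133 at chr9:43982001-43983200, 60.2 kb away, with 105 in MEF. On the ESC side, where 50.3% of all regions were unmatched, Lef1, a Wnt effector, had 10 of 18 unmatched. Its tallest had 184 at chr3:131101991-131102890 (164 in iPSC). Spry2, a feedback inhibitor of FGF signalling, had a tallest of 152 at chr14:105920071-105921640 (205 in iPSC). The nearest gene need not be the gene that a region acts on.

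Most of the tallest ESC-only regions were also in other lists, as was the tallest intermediate-only region. Of the 8 tallest ESC-only regions, 7 were also in MEF, at 742 to 1034, and 6 of these in iPSC. The tallest, at chr14:90910911-90911800, 2102 kb from Pcdh9, had 1037 in ESC, 1034 in MEF and 892 in iPSC, and the next, 15.4 kb from Adgre5, had 948, 941 and 909. Only the region 9.18 kb from Nkx2-6, at chr14:69161671-69162620, was in no other list, with 791. The tallest intermediate-only region, in Chl1 at chr6:103648861-103649810, had 58135 there, 93490 in MEF and 49401 in iPSC. Such a height is far from the median of 50 in the intermediate list, where 31 regions exceeded 1000. What gives such heights, or the near-equal heights of the ESC-only regions above in MEF, was not tested. These regions are therefore weak examples of a difference. Next came a region at the end of 4931408C20Rik (chr1:26686681-26688650) with 747, 1 near Tex35 with 575 and 1 near Slamf9 with 404, all 3 in no other list. The regions near Pdia4 (373) and Safb2 (346) lay 0.111 kb and 0.001 kb from an ESC region, so that they count as unmatched by a small margin.

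At gene ends, the tallest ESC peaks without an intermediate peak were at Gm40469 (494), Fer (407), Esyt2 (363) and 5 neighbouring genes of chromosome 6, Gm40369, Gm40367, Gm40365, Gm40363 and Gm36327 (317 to 393). Fer encodes a tyrosine kinase and Esyt2 a membrane-tethering protein, and all 8 genes also had an end peak in iPSC. Among the tallest of the opposite kind were those at 4931408C20Rik (747), Smco3 (447), Zfp446 (414), Trpm8 (292), S100a3 (286), Mndal (283) and Map4 (260). Of these genes, Trpm8, S100a3 and Map4 had a MEF peak, and Map4 an iPSC peak of 21. The S100a3 end peak is not the promoter peak given above, since the printed promoter lies inside the gene's ends. Its MEF height of 158 is also that of the end peak of the neighbouring gene S100a4.

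Genes were also ranked by their number of unmatched regions, which depends on how many regions a gene has. Over all regions, 50.3% of ESC and 48.4% of intermediate regions were unmatched. ESC-only regions were most numerous at Magi2 (31 of 46 regions), Pde4d (30 of 59), Macrod2 (28 of 45), Cntnap2 (27 of 35), Anks1b, Dlg2 and Ptprd (23 each) and Auts2, Cntn5 and Lrp1b (22 each). The shortest of these genes is 1100 kb long, and several encode adhesion or synaptic proteins. Their unmatched shares ran from 50.8% at Pde4d, close to that of all ESC regions, to 84.6% at Lrp1b. Intermediate-only regions were most numerous at Slc39a11, a zinc transporter gene (58 of 71), then at Foxp1 (41 of 53), Zbtb7c (39 of 50), Gpc6 (38 of 49), Nav2 (38 of 54), Auts2 (34 of 50), Mical3 (31 of 39) and Itpr1, Ptprg and Wwox (28 each). Of these, 8 are shorter than 1000 kb, the shortest being Mical3 at 242 kb. Their shares ran from 68.0% at Auts2, which is in both rankings, to 84.8% at Wwox. Ranking by unmatched count favours such high shares. At Slc39a11, 405 kb long, ESC had 18 regions and lacked a match for 7, and of the 58 only 7 were in iPSC and 3 in MEF.

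Promoter sequence went with the class of a promoter. The promoter table holds 20085 windows of 300 bp for 16457 genes, of which 11264 had a peak in both lists, 1588 in ESC only, 451 in the intermediate only and 6782 in neither. As a background, 12.4% of windows with an ESC peak had none in the intermediate and 3.85% of windows with an intermediate peak had none in ESC. The median number of CpG was 22 where both lists had a peak, 14 for ESC only, 5 for intermediate only and 3 for neither. Windows with 10 CpG or more made up 89.7%, 68.1%, 15.7% and 5.59% of these classes. Median GC contents were 62.3%, 59.7%, 53.0% and 46.7%.

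CpG-poor promoters were unmatched more often in both directions. With 0 to 3, 4 to 9, 10 to 19 and 20 or more CpG, windows with an ESC peak lacked an intermediate peak in 41.0%, 28.2%, 13.6% and 7.62% of cases. For windows with an intermediate peak the shares without an ESC peak were 49.7%, 17.6%, 1.58% and 0.264%. In CpG-rich promoters the intermediate thus added almost none to ESC, 18 of 6815 windows, while it lacked 561 of 7358. With 20 CpG or more, ESC windows lacked an iPSC peak in 3.78% of cases (3.37 to 4.24) and a MEF peak in 5.44% (4.94 to 5.98), against 7.62% (7.04 to 8.25) for an intermediate peak. Over the taller 50% of the ESC windows this order did not hold, with 0.351% for iPSC, 1.05% for the intermediate and 1.10% for MEF. With 0 to 3 CpG the order was 28.3% for iPSC, 41.0% for the intermediate and 51.4% for MEF. Since tall peaks are matched more often and CpG-rich promoters have taller peaks, the same was counted over the taller 50% of the windows of each list. With 20 CpG or more 1.05% of the ESC windows and 0.0267% of the intermediate windows were unmatched, and with 0 to 3 CpG 24.1% and 38.3%.

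**Figure D5:**
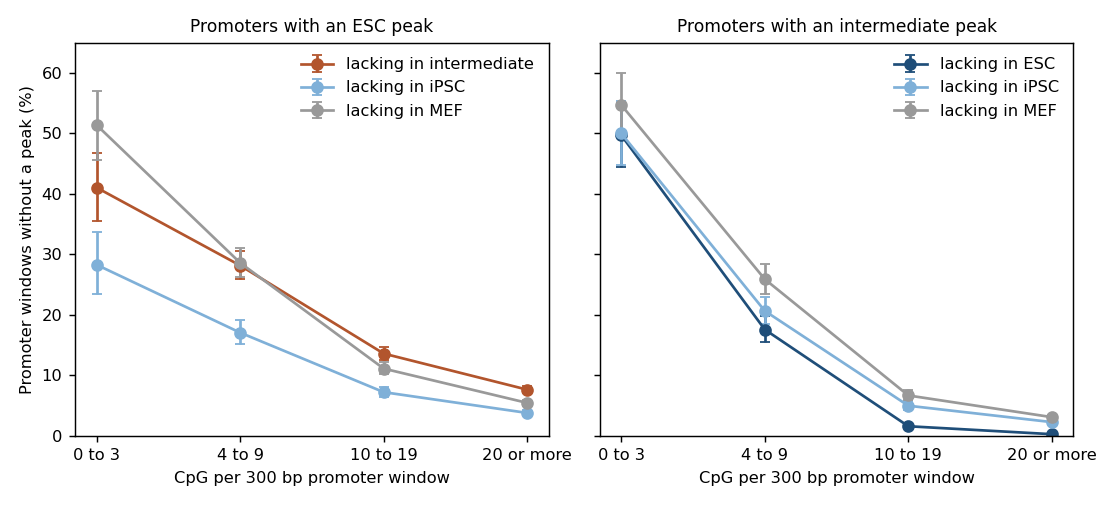
Share of promoter windows with an ESC peak (left) or an intermediate peak (right) that lack a peak in each other list, by number of CpG in the 300 bp window; bars are Wilson 95% intervals over windows. All curves fall with CpG, and at 20 or more the intermediate lacks 7.62% of ESC windows while ESC lacks 0.264% of intermediate windows.

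Letters of known binding sites were counted on both strands of the windows. TGANTCA, the AP-1 core, was present in 7.06% of all windows, in 4.00% with a peak in both lists, 5.98% for ESC only, 11.6% for neither and 19.3% (15.9 to 23.2) for intermediate only. CpG-poor windows hold these letters more often, and among windows with 0 to 3 CpG they were in 22.5% (16.8 to 29.4) of the intermediate-only windows and 12.6% of all. With 4 to 9 CpG they were in 40 of 211 and in 389 of 3818 windows. The letters AGATAAG, of GATA factors, were in 3.77% (2.37 to 5.95) of intermediate-only windows, 4.82% for neither and 2.58% of all. Within CpG groups the intermediate-only windows hardly stood apart. With 0 to 3 CpG the letters were in 5.33% of them and 4.92% of all, and with 4 to 9 CpG in 3.32% and 4.03%.

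Other letters had another order. CCGGAAGT, for ETS factors, was in 8.75% of windows with a peak in both lists, 1.83% for ESC only and 1.55% for intermediate only, against 5.28% of all. This string holds CG, so its count follows the CpG content in part. GGGNGTGG, for Klf factors, was in 24.0%, 23.7% and 22.2% of these classes, against 19.6% of all, and so hardly differed among windows with a peak.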

How the data were processed

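Each population was profiled by ATAC-seq in 1 library of 50000 cells, transposed for 30 minutes and amplified over 12 cycles, per the labels' protocols. For every library the authors deposited a list of peaks giving the ends, the summit and a height. That height is a signal in whole numbers, at least 5 and not known to be scaled. Tools named in the submitters' processing notes are Bowtie2, CASAVA 1.8.2, MACS 1.4.2-1 and Picard, with the build mm10; their parameters and the program behind the heights are not given in the sources at hand. Authors' peak calling sets the number of regions, and the depth is unknown.

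Peaks on chromosomes 1 to 19 at most 10 bp apart were joined, and 1 bp of overlap counted as shared (Python 3.11.15, pandas 2.3.3, numpy 2.4.6, scipy 1.17.1). Gene positions and promoter windows (300 bp, genes of chromosome 18 and some listed genes not among them) came from RefSeq tables for GRCm38.p6, the assembly that mm10 names. The genome sequence was not used here, so distal regions were not searched for motifs. Of the 312 genes in 22 lists, 310 were used and 2 on chromosome X were left out. The 2 ends of a gene were treated alike. A region that touched several of the other list was paired with the region of longest overlap. Letters of 17 motifs were counted in the promoters, and those printed were chosen after their values were seen.

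Groups came from the sample titles. A single library per group allowed no test, so p-values are absent. Wilson 95% intervals cover counting error over regions or windows. The procedure was tested on simulated peak lists. The genes named are listed genes with an end peak in 1 list only, the tallest unmatched regions of the lists, the 10 genes with most unmatched regions, the 8 tallest regions and end peaks and the 3 widest regions of each kind; some are not reported here, and other listed genes and loci were named after their values were seen. The members and lists were chosen with earlier results of these data known. Alternatives were other joining, overlap and height rules, lists of equal length, 500 bp around summits, chromosome X, other windows and assignment distances, and, added after seeing the data, regions over a height of 1000 left out and the promoter window.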

Additional observations from a re-analysis of the deposited data

Results flagged for a closer look

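Peaks outside the chromosomes compared also differed. On the Y chromosome the ESC list held 391 peaks and the intermediate list 34, beside 50 in MEF and 539 in iPSC. On the X chromosome ESC had 3675 peaks and the intermediate 2604, beside 2148 in MEF and 3944 in iPSC. These counts were looked at because the comparison leaves both chromosomes out, and their cause was not tested.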

How the results depend on the processing

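The shares are given in the order ESC regions missing in the intermediate, intermediate regions missing in ESC, ESC-only regions in iPSC and in MEF, and intermediate-only regions in iPSC and in MEF, which were 50.3%, 48.4%, 60.6%, 18.5%, 13.2% and 16.9%, with a Jaccard index of 0.322. Asking for 50% of the shorter region gave 51.7%, 49.8%, 59.0%, 17.5%, 12.4% and 15.4%, and counting regions within 500 bp as shared gave 47.3%, 45.2%, 63.4%, 19.9%, 14.7% and 19.7%. The taller 50% of each list gave 48.3%, 50.2%, 55.8%, an unmoved MEF share, 10.2% and 15.6%, with an index of 0.301, so there the intermediate had the larger unmatched share. Regions of 500 bp around the summit gave 54.2%, 52.5%, 57.3%, 16.8%, an unmoved iPSC share and 14.6%, with an index of 0.243. Peaks not joined moved the ESC-only shares to 59.6% and 20.7%, the intermediate-only MEF share to 17.9% and the index to 0.318, and joining up to 100 bp moved the first 2 to 61.2% and 18.0% and the index to 0.323. Lists of equal length moved the ESC-only share in iPSC to 61.2%. The index was 0.318 without heights under 10, 0.320 with chromosome X and 0.321 without heights over 1000. In none of these settings did the order of the iPSC and MEF shares within a class change, and the causes of the shifts were not tested. For gene ends, the promoter window gave 314 intermediate-only genes against 672, over fewer genes (16457), and 1201 ESC-only genes. Regions at listed genes numbered 746 ESC-only and 558 intermediate-only, and 1461 and 1143 when peaks were not joined, which by construction counts sub-peaks. Among single lists, 20 values moved without joining, 5 under the promoter window, 2 with assignment within 20 kb and 1 in the taller 50%. No paired analysis was possible because each group has 1 library, and leaving out a library would end the comparison. The unknown depth limits what the absence of a peak can show.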

Other observations

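Unmatched regions were sometimes clustered along a chromosome. Runs of ESC-only regions with no other region of either list between them reached 38 regions on chromosome 13 (66243901 to 66878770), where 28 had an iPSC region and the nearest genes include Zfp640. A neighbouring run of 33 covered chr13:65348481-65991800, with 27 in iPSC. A run of 20 on chromosome 8 (43328621 to 44235140) had Zfp42, Adam26a, Adam26b and Adam34l as its nearest genes, with 16 in iPSC. Zfp42 itself lies outside the run and has an end peak in both lists. The longest intermediate-only runs were denser, with 23 regions over 199 kb nearest to Chst11, 17 over 147 kb nearest to Plcg2, Sdr42e1 and Hsd17b2 and 16 over 78.0 kb nearest to Abtb2, with 3, 1 and 1 regions in iPSC. Runs of 10 or more held 2.81% of ESC-only and 1.48% of intermediate-only regions, so most unmatched regions stood outside them.

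A block of chromosome 6 (47652721 to 47767070) had 11 regions over 59.7 kb in ESC, 11 over 24.1 kb in iPSC, 4 over 36.2 kb in MEF and 0 in the intermediate. It holds the widest ESC-only region, 13320 bp long, and the gene ends of Gm40369, Gm40367, Gm40365, Gm40363 and Gm36327. By comparison the widest intermediate-only region, 29.4 kb from Setd3, was 4350 bp long. In the Mb of chromosome 11 that starts at 113000001, which includes Slc39a11, 87 of 113 intermediate regions and 12 of 37 ESC regions were unmatched. None of these patterns was tested, and with 1 library each their source cannot be told apart.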
